A study of Rattus norvegicus with 43 samples.

Results

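The 9 genes Srxn1, Nqo1, Hmox1, Gsta4, Gpx1, Mgst3, Gclc, Gclm and Txnrd1 encode enzymes of antioxidant defence, and most are known targets of the transcription factor NRF2. They were chosen by symbol, with earlier results of these data known, and all 9 were among the 9095 genes tested. Their RNA was measured in A7r5 cells, a line of vascular smooth muscle cells from rat embryonic aorta, with 43 Affymetrix arrays, on which a probe set of several short probes reads a transcript. The cells were kept in custom medium with folic acid at 2.5 ng/ml (deficient), 10 ng/ml (sufficient) or 100 ng/ml (excess) for 7, 14 or 21 days. There were 5 arrays for each medium and day, except 4 for deficient and 4 for excess medium at day 7. All groups are the same cell line, and the labels give no difference between them other than folic acid and time. The labels do not say that the replicates were separate cultures, so a p-value here covers only the scatter of these samples, and that may be technical.

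NRF2, encoded by Nfe2l2, is held in the cytoplasm by KEAP1, which presents it to a cullin ligase for degradation. When oxidants or electrophiles modify KEAP1, NRF2 accumulates, pairs with a small MAF protein and binds antioxidant response elements near genes for glutathione synthesis, thioredoxin and quinone reduction, and haem breakdown. In smooth muscle of the vessel wall these enzymes limit hydrogen peroxide, lipid aldehydes and free haem.

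In excess medium Srxn1, Nqo1, Hmox1, Gsta4 and Gpx1 fell at day 14 and at day 21 relative to sufficient medium, by 0.36 to 1.12 on the log2 scale, where 18.8% and 19.3% of all genes tested were called lower at those days. Gclc, Gclm, Txnrd1 and Mgst3 did not pass the test at either day. In deficient medium 0 of the 9 genes passed the test at any day, where 0%, 0.088% and 0.781% of all genes did at days 7, 14 and 21. Time in culture changed 8 of the 9 genes in sufficient medium, 3 of them upward and 5 downward, where 29.6% of all genes were called higher and 33.1% lower. The genes therefore did not move as one group: Srxn1 and Nqo1 fell with time and fell further in excess medium, while Gsta4 and Hmox1 rose with time and rose less in excess medium.

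Every member had a probe set above a log2 value of 4, the limit used for low values, on all 43 arrays. Srxn1 has 3 probe sets, Gclc and Txnrd1 have 2 each, and the rest have 1, and the probe set with the highest mean stands for the gene. All levels below are the deposited log2 values, on which a difference of 1 is a doubling, and levels of different probe sets cannot be set against each other. The 9 smooth muscle markers were all measured above the limit, among them Acta2, alpha-actin, with group means of 13.60 to 14.36, and Myh11, smooth muscle myosin, with 5.37 to 7.55. Of the markers of other cells, 0 of 5 for macrophages, 1 of 4 analysed for endothelium, 1 of 5 for epithelium, 3 of 5 for fibroblasts and 4 of 6 for skeletal muscle passed the limit. In these bulk samples fewer cells of a kind and less RNA per cell cannot be told apart.

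Promoter sequence is shown for Srxn1 and Nqo1, whose levels ran closest together of any pair, and for Gclm, the glutathione synthesis gene whose window holds the core of the antioxidant response element. The windows run from 250 bases before to 50 bases after the annotated start, 5′ to 3′ on the gene's strand, and come from RefSeq on build GRCr8. Srxn1 lies at chr3:161064562-161064861 on the plus strand, Nqo1 at chr19:52220218-52220517 on the minus strand, and Gclm at chr2:213031885-213032184 on the plus strand. Capitals mark matches to TGACNNNGC, the element's core, or to TGANTCA, a binding sequence of AP-1 factors, on either strand.
Srxn1: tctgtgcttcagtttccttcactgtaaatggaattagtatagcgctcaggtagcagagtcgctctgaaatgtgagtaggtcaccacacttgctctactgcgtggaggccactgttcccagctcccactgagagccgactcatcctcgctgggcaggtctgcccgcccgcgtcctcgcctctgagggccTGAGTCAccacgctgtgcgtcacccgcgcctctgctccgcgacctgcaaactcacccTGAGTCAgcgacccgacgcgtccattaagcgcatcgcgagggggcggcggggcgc
Nqo1: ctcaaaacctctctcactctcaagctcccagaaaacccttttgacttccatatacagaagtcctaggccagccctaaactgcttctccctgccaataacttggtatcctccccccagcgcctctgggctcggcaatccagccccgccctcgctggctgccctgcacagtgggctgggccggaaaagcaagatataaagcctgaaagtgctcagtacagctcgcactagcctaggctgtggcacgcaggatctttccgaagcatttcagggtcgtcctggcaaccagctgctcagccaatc
Gclm: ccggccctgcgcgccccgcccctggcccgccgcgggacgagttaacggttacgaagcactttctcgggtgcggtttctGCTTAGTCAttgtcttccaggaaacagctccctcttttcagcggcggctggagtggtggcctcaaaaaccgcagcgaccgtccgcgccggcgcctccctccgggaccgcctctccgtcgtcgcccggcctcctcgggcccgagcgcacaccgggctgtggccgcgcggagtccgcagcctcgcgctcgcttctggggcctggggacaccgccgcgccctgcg
The Gclm match, GCTTAGTCA, reads the core on the opposite strand and begins at position -172 relative to the start. The Srxn1 window holds TGAGTCA at -62 and again at -5. The match at -5 is followed by gc, so it differs from the core TGACNNNGC only by a G in place of the C. Forms of the core with that change were not searched. The Nqo1 window holds neither motif.

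RefSeq windows were found for 8 of the 9 genes, with 9 windows in all because Txnrd1 has 2. The core TGACNNNGC was found in 2 of the 9, those of Gclm and the window of Txnrd1 at chr7:22755855-22756154 on the minus strand, where GCTTTGTCA begins at -78. Of all 33469 windows in the table, 12.1% hold that core. TGANTCA was found in 1 of the 9 windows, that of Srxn1, and in 7.33% of all windows. A match is only a run of letters in this window, and enhancers farther away were not searched.

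**Figure D1:**
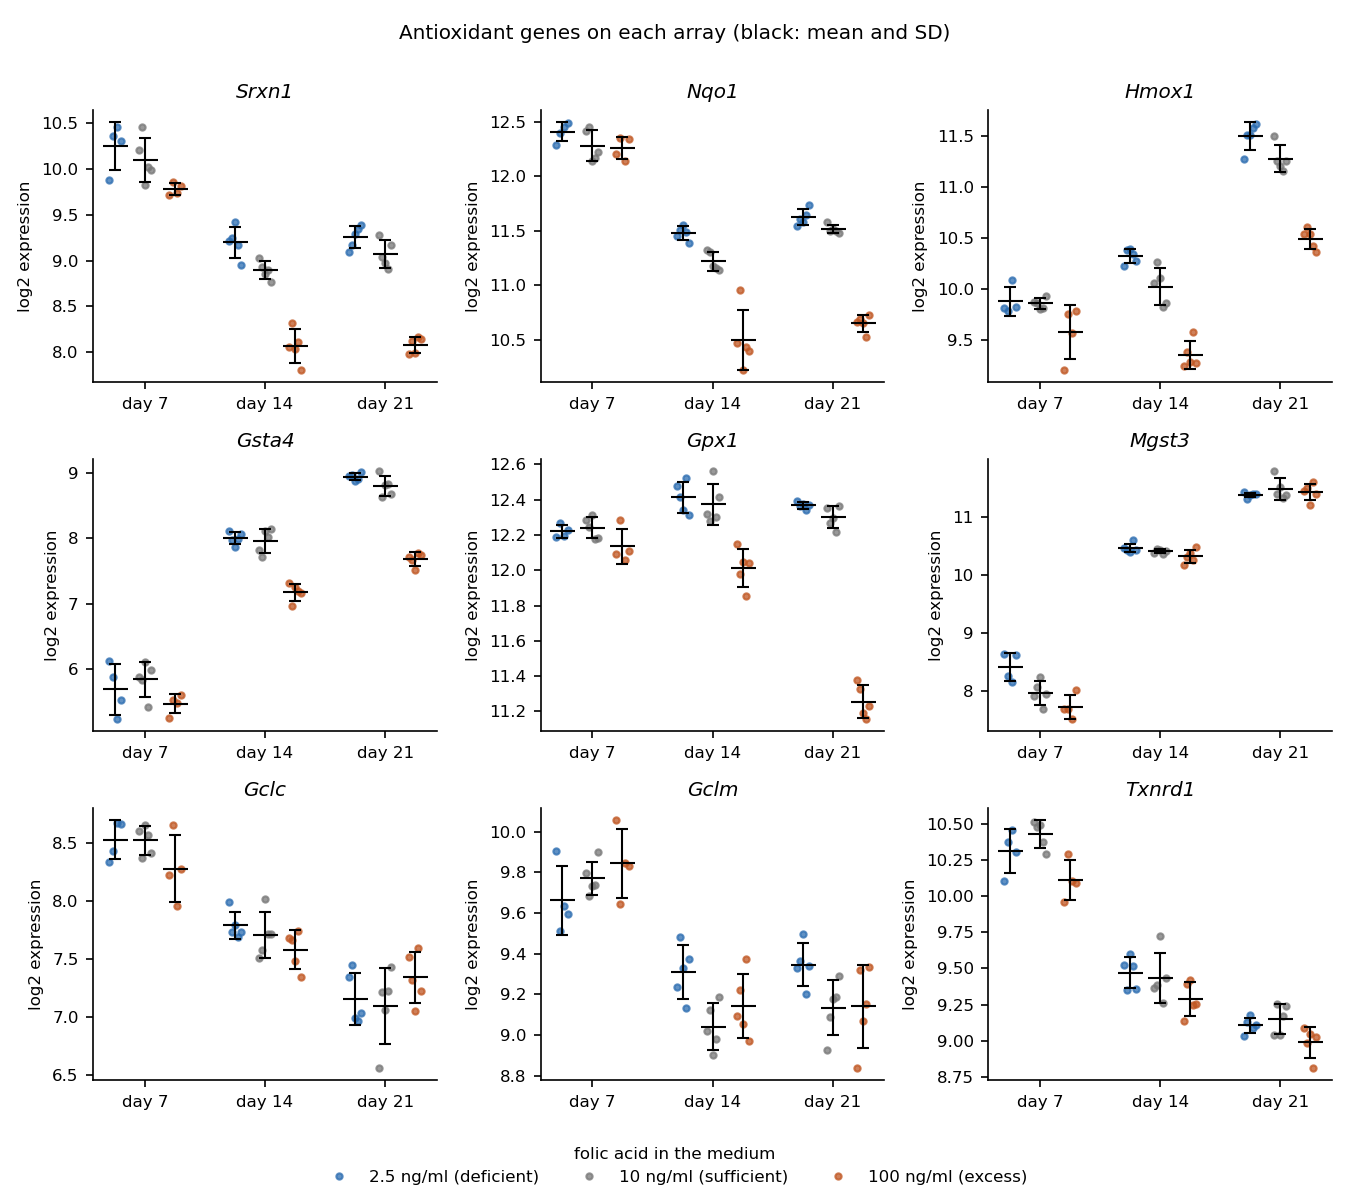
Log2 expression of the 9 genes (vertical axes, each with its own scale) by day (horizontal axes) on each of the 43 arrays, coloured by folic acid in the medium. Black lines are group means with SD. In Srxn1, Nqo1, Hmox1, Gsta4 and Gpx1 all excess arrays of days 14 and 21 lie below the other arrays of the same day, and the other 4 genes overlap between media at those days.

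Srxn1 encodes sulfiredoxin, which returns over-oxidized peroxiredoxins to their active form. At day 14 Srxn1 read 8.06, 8.03, 8.12, 7.81 and 8.32 on the excess arrays and 9.03, 8.93, 8.90, 8.85 and 8.76 on the sufficient arrays. At day 21 it read 7.98, 8.12, 7.997, 8.17 and 8.14 on the excess arrays and 9.27, 8.90, 9.04, 8.98 and 9.17 on the sufficient arrays. Every excess array was lower than every sufficient array of its day, and the groups did not overlap. The difference was -0.83 ± 0.10 (SE) at day 14, with an adjusted p of 3.4e-08. At day 21 it was -0.99 ± 0.10, or 1.99-fold lower, with an adjusted p of 2.8e-10. At day 7 the difference was -0.32 ± 0.11 and did not pass the test, with an adjusted p of 0.10.

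Nqo1 encodes the quinone reductase whose induction is the usual measure of NRF2 activity. Its excess arrays read 10.47, 10.23, 10.44, 10.40 and 10.96 at day 14, against 11.32, 11.31, 11.16, 11.18 and 11.14 in sufficient medium. On day 21 they read 10.67, 10.69, 10.66, 10.53 and 10.73, against 11.58, 11.49, 11.50, 11.51 and 11.48. The excess arrays were again all below the sufficient ones, with the array at 10.96 closest to them. Nqo1 fell by 0.72 at day 14 (SE 0.08, adjusted p 3.6e-09) and by 0.86 at day 21 (SE 0.08, adjusted p 2.4e-11), 1.82-fold. At day 7 the difference was -0.02 ± 0.09, with an adjusted p of 0.94 and a 95% interval of -0.19 to 0.15.

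Hmox1 encodes haem oxygenase 1, which opens the haem ring and releases iron, carbon monoxide and biliverdin. In excess medium Hmox1 read 9.25, 9.28, 9.57, 9.27 and 9.38 at day 14, against 10.06, 10.26, 9.82, 10.10 and 9.86 in sufficient medium. The day 21 values were 10.54, 10.60, 10.53, 10.42 and 10.36 in excess medium, against 11.50, 11.15, 11.25, 11.21 and 11.26 in sufficient medium. Both media were higher at day 21 than at day 14, and within each day the excess arrays lay below. The difference was -0.67 ± 0.09 at day 14 (adjusted p 1.9e-07) and -0.78 ± 0.09 at day 21 (adjusted p 3.9e-09), or 1.72-fold at day 21. At day 7 the arrays of the 2 media did not overlap either, but the difference of -0.28 ± 0.10 did not pass the test (adjusted p 0.10).

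Gsta4 encodes the glutathione transferase that conjugates 4-hydroxynonenal, an aldehyde formed from oxidized lipids. It read 7.31, 7.25, 7.19, 7.16 and 6.96 in excess medium at day 14, against 7.83, 7.71, 8.01, 8.11 and 8.14 in sufficient medium. Day 21 gave 7.71, 7.67, 7.51, 7.77 and 7.75, against 9.02, 8.83, 8.63, 8.82 and 8.68. The gap between the media was wider at day 21, where the highest excess array was below the lowest sufficient one by more than the whole range of either group. The difference was -0.79 ± 0.12 at day 14 (adjusted p 1.1e-06). A week later it was -1.12 ± 0.12 (adjusted p 3.5e-10), 2.17-fold and the widest of the 9 genes at that day. At day 7 it was -0.37 ± 0.12 and did not pass the test (adjusted p 0.088).

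Gpx1 encodes glutathione peroxidase 1, a selenium enzyme that reduces hydrogen peroxide with glutathione. At day 14 it read 12.15, 12.05, 11.86, 12.04 and 11.98 in excess medium, against 12.32, 12.28, 12.30, 12.56 and 12.42 in sufficient medium. Day 21 gave 11.38, 11.33, 11.19, 11.16 and 11.23, against 12.35, 12.21, 12.27, 12.30 and 12.36. The excess arrays were lower at both days, and the distance at day 21 was the larger one. The difference was -0.36 ± 0.06 at day 14 (adjusted p 4.3e-06) and -1.04 ± 0.06 at day 21 (adjusted p 8.5e-18), which is 2.06-fold. At day 7 it was -0.11 ± 0.06 (adjusted p 0.38).

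Txnrd1 encodes the cytosolic thioredoxin reductase, a selenium enzyme. At day 7 it read 9.96, 10.10, 10.09 and 10.29 on the excess arrays, against 10.51, 10.48, 10.37, 10.29 and 10.49 on the sufficient arrays. The highest excess array lay just under the lowest sufficient array. The difference of -0.32 ± 0.08 passed the test with an adjusted p of 0.029. That call was lost in 4 of 13 other ways of processing, and the difference turned to 0.02 with the mean of the probe sets. It was also lost without sufficient replicate 1 or 2 or without excess replicate 1, 3 or 4. At days 14 and 21 the Txnrd1 differences were -0.14 ± 0.08 and -0.16 ± 0.08, with adjusted p of 0.14 and 0.09. Under some alternatives these Txnrd1 differences passed the test, at -0.52 and -0.48 with the mean of the probe sets (adjusted p 0.011 and 0.019), at -0.19 at day 14 with the serial covariate (adjusted p 0.032) and at -0.18 at day 21 with array weights (adjusted p 0.035).

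Gclc and Gclm encode the catalytic and modifier subunits of glutamate-cysteine ligase, which makes the first step of glutathione synthesis. Gclc ranged from 7.05 to 7.59 in excess medium at day 21 and from 6.56 to 7.43 in sufficient medium, with ranges that overlapped. Its difference at day 21 was 0.24 ± 0.13 with a 95% interval of -0.02 to 0.51, and at day 14 it was -0.12 ± 0.13. The Gclc difference at day 21 turned on which arrays were used. It passed the test with serials up to 45 only (0.53, adjusted p 0.0062), without serials 53 to 56 (0.38, adjusted p 0.047) and without sufficient replicate 6 (0.33, adjusted p 0.048), and with serials above 45 only it was -0.19 (adjusted p 0.33). Gclm ranged from 8.84 to 9.33 in excess medium at day 21 and from 8.93 to 9.29 in sufficient medium, a difference of 0.01 ± 0.09 with an interval of -0.18 to 0.19. Mgst3, a membrane-bound glutathione transferase and peroxidase, ranged from 11.21 to 11.59 in excess medium at day 21 and from 11.32 to 11.78 in sufficient medium. Its difference was -0.05 ± 0.10 with an interval of -0.24 to 0.14. These intervals do not reach the 1.12 by which Gsta4 fell, and they allow smaller changes.

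**Figure D2:**
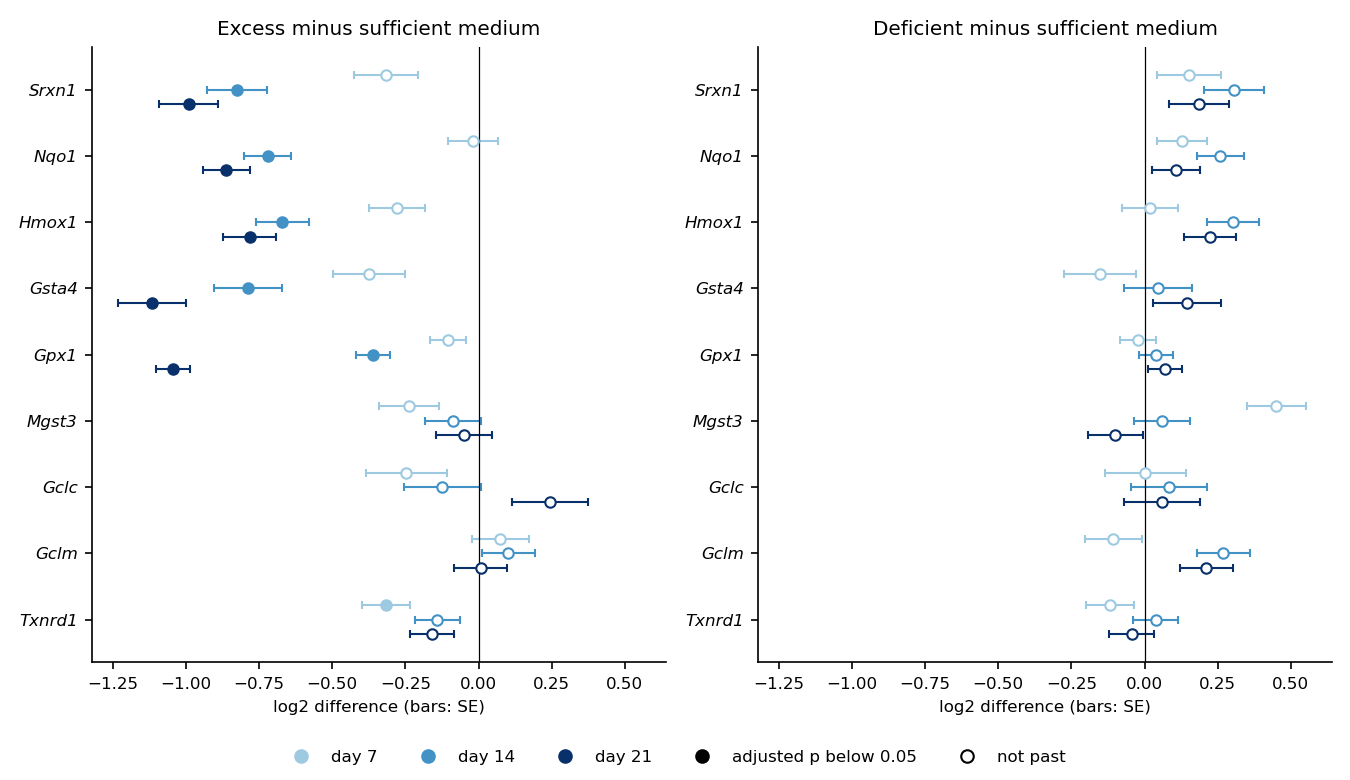
Log2 difference of each gene between excess and sufficient medium (left) and deficient and sufficient medium (right), with SE bars, at days 7, 14 and 21 (colours). Filled points passed an adjusted p of 0.05. On the left the filled points are Srxn1, Nqo1, Hmox1, Gsta4 and Gpx1 at days 14 and 21 and Txnrd1 at day 7, all below 0, and on the right no point is filled.

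Counted over the 9 genes, excess against sufficient medium gave 0 higher and 1 lower at day 7, where 0.275% of all genes tested were called higher and 2.1% lower. With 1 array left out others passed at day 7, Srxn1 without sufficient replicate 6 (-0.38, adjusted p 0.041), Gsta4 without sufficient replicate 4 (-0.48, adjusted p 0.026) and Hmox1 without excess replicate 6 (-0.34, adjusted p 0.04). At day 14 it gave 0 higher and 5 lower, where 22.3% of all genes were called higher and 18.8% lower. At day 21 it again gave 0 higher and 5 lower, where 24.4% of all genes were called higher and 19.3% lower. The share of the 9 genes called lower was thus above the background of all genes at days 14 and 21, and none was called higher at those days although more of all genes were. Because the 9 genes were chosen with earlier results of these data known, this describes them and is no independent support. The median difference over the 9 genes was -0.25, -0.36 and -0.78 at days 7, 14 and 21, where the median over all genes was -0.06, 0.01 and 0.03.

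The excess arrays of days 14 and 21 also differed in a measure of RNA quality. The array's control probe sets for beta-actin read the 3′ and the 5′ end of the transcript, and a larger 3′ minus 5′ difference goes with shorter RNA or cDNA. The median of that log2 difference was 2.37 at day 14 and 2.30 at day 21 in excess medium, where it was 1.71 and 1.67 in sufficient medium. It was at most 2 in 2 of 5 excess arrays at each of those days and in all 5 sufficient arrays of each. With only those arrays the differences of Srxn1, Nqo1, Hmox1, Gsta4 and Gpx1 were -0.83, -0.54, -0.69, -0.90 and -0.37 at day 14. At day 21 they were -1.02, -0.84, -0.70, -1.10 and -0.95, and all of these passed the test at both days. With the beta-actin difference as a covariate they lay between -0.88 and -0.33 at day 14 and between -1.12 and -0.74 at day 21.

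The titles carry a serial number, and 11 arrays have one above 45, among them a run from 53 to 56 that holds excess arrays of the later 2 days and nothing else. What the numbers stand for is not stated. With serials up to 45 only, the day 21 differences were -1.01 for Srxn1, -0.91 for Nqo1, -0.80 for Hmox1, -1.10 for Gsta4 and -1.02 for Gpx1. With serials above 45 only they were -0.97, -0.80, -0.76, -1.13 and -1.08 in the same order. All 5 genes passed the test at day 21 in both, though serials above 45 left only 2 excess and 2 sufficient arrays there. At day 14 with serials above 45 only, 3 excess arrays met 1 sufficient array, which was assumed to vary like the other groups. There Nqo1 at -0.62 and Gpx1 at -0.50 no longer passed.

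Of the marker lists, those of skeletal, epithelial and smooth muscle cells differed without overlap between excess and sufficient medium at day 21. The summed level of the 6 skeletal muscle markers (log2 of the sum) ranged from 7.73 to 8.24 in excess medium at day 14, against 9.21 to 9.35 in sufficient medium. At day 21 it ranged from 6.82 to 7.19, against 9.26 to 9.41, with Myog and Tnnt3 not above the limit in enough arrays. The summed epithelial markers, of which only Krt8 passed the limit, ranged from 8.09 to 8.40 in excess medium at day 21, against 8.67 to 9.11. The 9 smooth muscle markers ranged from 15.68 to 15.74 in excess medium at day 21, against 15.95 to 16.13. The other lists overlapped at that day. The fibroblast sums ranged from 13.59 to 14.03 in excess medium and from 13.55 to 14.21 in sufficient medium, the endothelial sums from 4.88 to 5.02 and from 4.93 to 5.07, and the macrophage sums from 4.79 to 4.98 and from 4.89 to 5.00. The part of the marker lists in the results was not tested.

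The second probe sets did not always match the first. At day 7 the second Srxn1 probe set differed by 0.42 in excess medium (adjusted p 0.48), where the first differed by -0.32. The second Srxn1 probe set was lower in excess medium by a log2 difference of -1.02 at day 14 and -1.02 at day 21, with adjusted p of 0.0022 and 0.0018 over all probe sets, from means of 3.99 and 3.97 that lie near the limit. The second Txnrd1 probe set differed by -0.90 and -0.79 (adjusted p 0.018 and 0.036), where the first differed by -0.14 and -0.16. With the beta-actin difference as a covariate the second Txnrd1 probe set differed by -0.06 and -0.02 (adjusted p 0.74 and 0.93). The second Srxn1 probe set then differed by -0.42 (adjusted p 0.075) and -0.47 (adjusted p 0.043). The second Gclc probe set differed by 0.13 at day 21 (adjusted p 0.54), and with that covariate it passed the test at 0.45 (adjusted p 0.0014).

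The study's title names folate deficiency, and in deficient medium 0 of the 9 genes passed the test at day 7, 14 or 21. Of all genes tested, 0%, 0.088% and 0.781% were called at those days in limma's test, so few calls are found anywhere in these comparisons. At an unadjusted p of 0.05, 551, 787 and 1118 of the 9095 genes tested and 1, 4 and 2 of the 9 genes passed. The smallest adjusted p among the 9 genes was 0.22, 0.22 and 0.27. The largest difference was that of Mgst3 at day 7. Mgst3 read 8.64, 8.25, 8.16 and 8.61 on the deficient arrays and 7.90, 8.06, 7.68, 7.94 and 8.23 on the sufficient arrays. The groups overlapped in a narrow stretch, and the difference was 0.45 ± 0.10 with an adjusted p of 0.22.

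At day 14, Nqo1 read 11.46, 11.51, 11.56, 11.49 and 11.39 in deficient medium, against 11.32, 11.31, 11.16, 11.18 and 11.14 in sufficient medium. The groups did not overlap, and the difference was 0.26 ± 0.08 with an adjusted p of 0.25. It was the only one of the 9 genes without overlap in these comparisons. The share of all genes without overlap was not computed, so this count has no background to be read against. Srxn1 differed by 0.31 ± 0.10, Hmox1 by 0.30 ± 0.09 and Gclm by 0.27 ± 0.09 at day 14, with overlapping arrays and adjusted p of 0.31, 0.22 and 0.31. At day 21 the 95% interval of the difference was -0.02 to 0.39 for Srxn1, -0.06 to 0.27 for Nqo1, 0.04 to 0.41 for Hmox1 and -0.05 to 0.19 for Gpx1. These intervals leave room for a small rise and none for a fall of the size seen in excess medium.

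The difference between the effects at day 21 and day 7 in deficient medium passed for 0 of the 9 genes, where 0.044% of all genes passed. In excess medium that test passed for 4 of the 9 genes between day 14 and day 7, all lower, where 13.8% of all genes were called higher and 4.67% lower. These were Srxn1 at -0.51 ± 0.15 (adjusted p 0.015), Nqo1 at -0.70 ± 0.12 (adjusted p 3.8e-05), Gpx1 at -0.26 ± 0.08 (adjusted p 0.029) and Hmox1 at -0.39 ± 0.13 (adjusted p 0.033). Between day 21 and day 7 it passed for 5 of the 9, all lower, where 17% of all genes were called higher and 7.53% lower. Gsta4 joined them at -0.74 ± 0.17 (adjusted p 0.0011), and Gpx1 had the largest value at -0.94 ± 0.08 (adjusted p 5.2e-11). The count for day 14 was 1 with serials up to 45 only, 2 with the beta-actin covariate and 2 without excess day 7 replicate 6. Nqo1 passed in all 3 of these. Hmox1 lost the day 14 call without any 1 of 8 arrays (sufficient day 7 replicate 6, excess day 7 replicates 3, 4 and 6, sufficient day 14 replicates 1 and 2, excess day 14 replicates 1 and 3). Gpx1 lost it without excess day 7 replicate 6, sufficient day 14 replicate 4 or excess day 14 replicate 4. Gsta4 passed it without sufficient day 7 replicate 6 (-0.48, adjusted p 0.047). Between day 21 and day 7, Hmox1 lost the call with serials up to 45 only and with only arrays of a beta-actin difference of at most 2. Gclc had a difference of 0.49 ± 0.19 between day 21 and day 7 (adjusted p 0.054), and it passed with serials up to 45 only (0.87, adjusted p 0.0027) and in 10 other alternatives.

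Set directly against excess medium, deficient medium had 2 of the 9 genes higher and 0 lower at day 7, where 4.04% of all genes were called higher and 0.968% lower. These were Mgst3 at 0.69 ± 0.11 (adjusted p 0.00011) and Srxn1 at 0.47 ± 0.11 (adjusted p 0.012), both without overlap. The Srxn1 call was lost without deficient replicate 5 (0.40), with only the groups compared and with the mean of the probe sets (0.06). The second Srxn1 probe set differed by -0.34 and did not pass (adjusted p 0.56). Hmox1, at 0.30 ± 0.10, passed without excess replicate 4 or 6 (adjusted p 0.048 and 0.036). At day 14, 5 were higher and 0 lower, where 16.9% of all genes were called higher and 23.4% lower. At day 21, 5 were higher and 0 lower, where 22.4% were called higher and 28.5% lower. The 5 were Srxn1, Nqo1, Hmox1, Gsta4 and Gpx1 at both days, with differences of 0.40 to 1.13 at day 14 and of 0.97 to 1.26 at day 21. In some alternatives Txnrd1, Gclc or Gclm also passed, such as Txnrd1 with the mean of the probe sets (0.56 and 0.59). Gclc was higher in deficient medium at day 14 with the mean of the probe sets (0.30, adjusted p 0.032). At day 21 it was lower there, at -0.32 with serials up to 45 only (adjusted p 0.047). The second Txnrd1 probe set passed at 0.94 and 1.07 (adjusted p 0.013 and 0.0037). With the beta-actin covariate it did not, at 0.07 and 0.235 (adjusted p 0.71 and 0.14). The comparisons of deficient with excess medium share the excess arrays with those against sufficient medium.

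Over the 3 doses at day 21, the mean Srxn1 level was 9.26 ± 0.12 in deficient, 9.07 ± 0.15 in sufficient and 8.08 ± 0.09 in excess medium (SD, n = 5 each). Nqo1 averaged 11.62 ± 0.07, 11.52 ± 0.04 and 10.65 ± 0.08, and Hmox1 averaged 11.50 ± 0.13, 11.27 ± 0.13 and 10.49 ± 0.10 in the same order of media. Gsta4 averaged 8.95 ± 0.05, 8.80 ± 0.15 and 7.68 ± 0.10, and Gpx1 averaged 12.37 ± 0.02, 12.30 ± 0.06 and 11.26 ± 0.09. In all 5 genes the deficient and sufficient arrays overlapped and the excess arrays stood apart below both.

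Time in culture moved all of the genes but Gpx1 in every medium. Day 21 against day 7 gave 4 of the 9 higher and 5 lower in deficient medium, where 30.7% of all genes were called higher and 34.1% lower. It gave 3 higher and 5 lower in sufficient medium, where 29.6% were called higher and 33.1% lower. It gave 3 higher and 6 lower in excess medium, where 34.6% were called higher and 25.4% lower. These media were sampled at the same days, and the 3 comparisons share no arrays.

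Mgst3 and Gsta4 rose most. Mgst3 in sufficient medium read 11.78, 11.32, 11.39, 11.52 and 11.37 at day 21, against 7.90, 8.06, 7.68, 7.94 and 8.23 at day 7. All day 21 arrays were far above all day 7 arrays, with a difference of 3.51 ± 0.10, or 11.4-fold (adjusted p 3.3e-28). The change of Mgst3 was 2.96 ± 0.10 in deficient and 3.70 ± 0.10 in excess medium. Gsta4 in sufficient medium read 9.02, 8.83, 8.63, 8.82 and 8.68 at day 21, against 5.87, 5.83, 5.41, 5.97 and 6.11 at day 7, again without overlap. Its difference was 2.96 ± 0.12, or 7.78-fold (adjusted p 3.3e-23), with 3.26 ± 0.12 in deficient and 2.22 ± 0.12 in excess medium. The summed skeletal muscle markers moved over the same days, a sum weighted to Acta1, skeletal alpha-actin, the highest of them (mean 8.17). In sufficient medium the sums were 9.26 to 9.41 at day 21 and 8.32 to 8.52 at day 7. In excess medium the sum ran the other way, with 6.82 to 7.19 at day 21 and 7.97 to 8.29 at day 7. This does not hold for every muscle gene. Over the 9 group means Myl4 and Myl1, outside that list, followed Gsta4 (r of 0.997 and 0.994), and Tnnc2 followed Mgst3 (0.992).

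Hmox1 rose later than these. In sufficient medium it ranged from 9.81 to 9.93 at day 7, from 9.82 to 10.26 at day 14 and from 11.15 to 11.50 at day 21, so the days 7 and 14 overlapped and day 21 stood above. The difference of day 21 against day 7 was 1.42 ± 0.09 in sufficient medium (2.67-fold, adjusted p 9.8e-17), 1.62 ± 0.10 in deficient and 0.91 ± 0.10 in excess medium. Gpx1 rose in deficient medium by 0.15 ± 0.06 (adjusted p 0.033), a call lost with the beta-actin covariate (largest adjusted p 0.075) or without any 1 of 4 deficient arrays, replicates 1, 5 and 6 of day 7 and replicate 2 of day 21. Its difference in sufficient medium was 0.06 ± 0.06 (adjusted p 0.39). In excess medium Gpx1 fell, with a difference of -0.88 ± 0.06 (adjusted p 2.2e-15).

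Gclc, Txnrd1, Srxn1, Nqo1 and Gclm fell with time in all 3 media. Gclc in sufficient medium read 6.56, 7.22, 7.22, 7.06 and 7.43 at day 21, against 8.60, 8.37, 8.57, 8.41 and 8.66 at day 7. The groups stood well apart, with a difference of -1.42 ± 0.13 (adjusted p 3.3e-12). Txnrd1 in sufficient medium read 9.04, 9.17, 9.26, 9.04 and 9.24 at day 21, against 10.51, 10.48, 10.37, 10.29 and 10.49 at day 7, a difference of -1.28 ± 0.08 (adjusted p 1.8e-17). Gclm changed less, by -0.63 ± 0.09 in sufficient medium and by -0.32 ± 0.10 in deficient medium. Srxn1 differed by -1.02 ± 0.10 and Nqo1 by -0.76 ± 0.08 in sufficient medium, and in excess medium by -1.70 ± 0.11 and -1.61 ± 0.09. The second Srxn1 probe set did not pass this test in sufficient medium (-0.44, adjusted p 0.15) or deficient medium. In deficient medium its difference had the opposite sign (0.22, adjusted p 0.51).

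**Figure D3:**
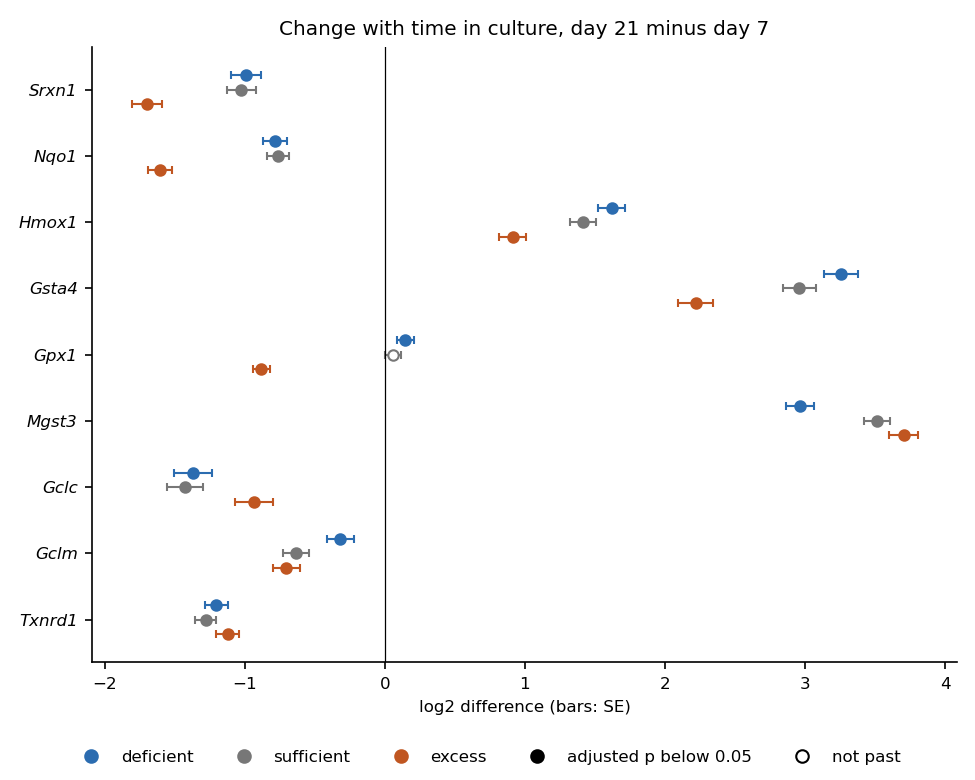
Log2 difference between day 21 and day 7 for each gene (horizontal axis, bars SE), with deficient, sufficient and excess medium in colours. Filled points passed an adjusted p of 0.05. Mgst3, Gsta4 and Hmox1 lie above 0 in all 3 media, Srxn1, Nqo1, Gclc, Gclm and Txnrd1 lie below 0 in all 3, and Gpx1 lies below 0 in excess medium only.

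The order of the 9 group means shows which neighbours differed beyond their spread. For Srxn1 the 3 media of day 7 ranked highest, each overlapping the next while the deficient and excess arrays did not overlap, then came the deficient and sufficient groups of days 21 and 14, and the 2 excess groups of those days came last, with a gap before them. Nqo1 had the same 3 blocks, with a further gap between deficient and sufficient medium at day 14. For Gsta4 the excess groups of days 14 and 21 fell between the other groups of those days and the 3 groups of day 7. For Hmox1 the excess group of day 14 ranked last and overlapped the excess group of day 7. For Gpx1 the excess group of day 21 ranked last with a gap above it, and the 8 groups above it overlapped each with the next. Gclc ran through all 9 groups with no gap between neighbours.

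Across the 9 group means, Srxn1 and Nqo1 had a Pearson r of 0.99, Gclc and Txnrd1 0.97, and Gsta4 and Mgst3 0.95. Txnrd1 and Mgst3 had an r of -0.96. These values describe 9 means that share arrays, days and media. Of all other genes tested, the pair with the highest r to Srxn1 was Nqo1 (0.99) and Akr1b8 (0.98), an aldo-keto reductase, and to Nqo1 it was Srxn1 (0.99) and Akr1b8 (0.99). The pair for Gsta4 was Myl4 and Myl1 (1.00 and 0.99), both myosin light chains, and that for Mgst3 was Akap1 and Tnnc2 (1.00 and 0.99), an anchoring protein of mitochondria and fast troponin C. Gpx1 had Aif1l and Gmfg (1.00 and 0.98), and Hmox1 had Rgs17 and Prkar1b (0.99 and 0.98). Gclc had Fadd and Tmed1 (0.99 each), Gclm had Acsl4 and Prps1 (0.98 each), and Txnrd1 had Fkbp11 and Bltp3a (0.99 each).

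**Figure D4:**
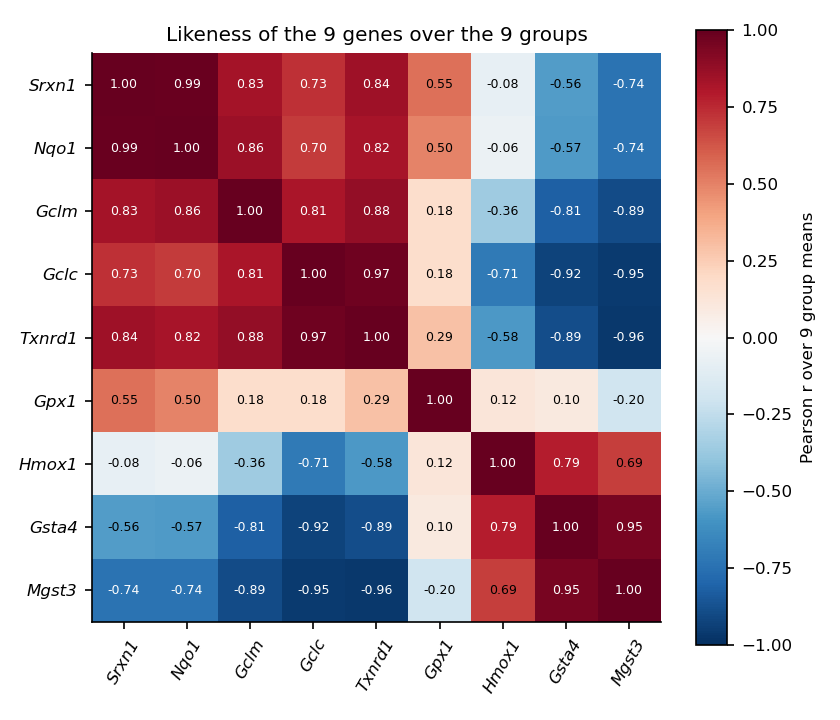
Pearson r between the 9 genes over the 9 group means, written in each square and coloured from -1 (blue) to 1 (red). Srxn1, Nqo1, Gclm, Gclc and Txnrd1 form a red block with r of 0.70 to 0.99, and Gsta4, Hmox1 and Mgst3 a second with r of 0.69 to 0.95, while Gpx1 reaches 0.55 at most.

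The regulators of the pathway were read from the same arrays. Nfe2l2, which encodes NRF2 itself, had means of 11.56 ± 0.06 in excess and 11.57 ± 0.08 in sufficient medium at day 21 (SD, n = 5 each), a difference of -0.01 ± 0.05. Keap1 averaged 6.53 ± 0.09 in excess and 6.54 ± 0.07 in sufficient medium, a difference of -0.01 ± 0.08. Neither passed the test in any of the 9 comparisons between media. With time Nfe2l2 rose in all 3 media, by 0.21 ± 0.05 in deficient, 0.14 ± 0.05 in sufficient and 0.19 ± 0.05 in excess medium. Keap1 rose with time in excess medium, by 0.38 ± 0.09. Of the small MAF partners, Mafg (-0.62) and Maff (-0.34) were lower in excess medium at day 14, and Maff (-0.54) and Mafk (-0.32) at day 21. Sqstm1, whose protein p62 draws KEAP1 into autophagy, was lower at day 14 (-0.49), and Nfe2l1, a relative of NRF2, was lower at day 21 (-0.56). Cul3, the scaffold of the KEAP1 ligase, was higher at both days (0.22 and 0.19), and Palb2, whose protein binds KEAP1, was called higher at day 21, where it averaged 4.33 in excess and 3.83 in sufficient medium, a level below the limit of 4, so its difference of 0.49 is blurred.

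A wider list of 130 genes of the pathway in 9 roles, the regulators included, gave 92 tested genes. It too was chosen with earlier results of these data known. In deficient medium 0 passed the test at day 7, and 1 at day 14, Txnip, which was lower by a log2 difference of -1.14 ± 0.14 at a mean of 4.08, near the limit. At day 21 Txnip was lower (-1.58 ± 0.14), and Slc3a2, the heavy chain of the cystine transporter, was higher (0.26 ± 0.06). Excess against sufficient medium gave 1 higher and 4 lower at day 7, 11 higher and 30 lower at day 14, and 14 higher and 34 lower at day 21. The median difference of the 92 genes was -0.12 at day 14 and -0.09 at day 21, beside 0.01 and 0.03 over all genes. At day 7, 1.09% of the 92 were higher and 4.35% lower, beside 0.275% and 2.1% of all genes. At day 14, 12% were higher and 32.6% lower, beside 22.3% and 18.8%. At day 21, 15.2% were higher and 37% lower, beside 24.4% and 19.3%. The role counts below are small and can be read against the same shares of all genes.

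By role, 7 of 13 genes of quinone, aldehyde and ketone reduction were lower and 1 higher in excess medium at day 14, and again 7 and 1 at day 21. Ephx1, the microsomal epoxide hydrolase, averaged 8.01 ± 0.22 in excess and 9.26 ± 0.11 in sufficient medium at day 14, a difference of -1.25 ± 0.13. Akr1b8 was lower by a difference of -0.61 at day 14 and -0.56 at day 21. Of the 14 thioredoxins and peroxiredoxins, 4 were lower and 1 higher at day 14, and 7 lower and 2 higher at day 21. Sesn2, sestrin 2, averaged 8.69 ± 0.23 in excess and 9.59 ± 0.26 in sufficient medium at day 14 and was lower at both days. Prdx6, the peroxiredoxin that uses glutathione, differed by -0.64 and -0.38.

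Of the 14 other glutathione peroxidases and transferases, 6 were lower and 1 higher at day 14, and 5 lower and 2 higher at day 21. Gstm2, a cytosolic transferase, averaged 7.02 ± 0.24 in excess and 7.83 ± 0.46 in sufficient medium at day 21, a difference of -0.81 ± 0.20. Of 11 genes of glutathione synthesis, cystine uptake and recycling, 3 were lower and 1 higher at day 14, and 4 lower and 0 higher at day 21. Chac1, which degrades glutathione, and Slc3a2 were lower at both days (-0.82 and -0.63 for Chac1, -0.63 and -0.52 for Slc3a2), and Glrx, glutaredoxin 1, was higher at day 14 (0.62 ± 0.11). Of 7 genes of NADPH supply, 5 were lower and 2 higher at day 14, and 3 lower and 2 higher at day 21. Idh1, the cytosolic isocitrate dehydrogenase, averaged 11.00 ± 0.08 in excess and 11.67 ± 0.07 in sufficient medium at day 21, a difference of -0.67 ± 0.05. Of 6 superoxide dismutase and catalase genes, 0 passed at day 14 and 1 was higher at day 21, Sod1 (0.13).

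Of 7 genes of haem and iron, 1 was lower and 1 higher at day 14, and 2 lower and 2 higher at day 21. Slc40a1, ferroportin, the exporter of iron, averaged 9.23 ± 0.09 in excess and 8.51 ± 0.09 in sufficient medium at day 21, a difference of 0.72 ± 0.10. It was lower in excess medium at day 7 (-0.61 ± 0.10). Slc48a1, a haem transporter, was lower at day 21 (-0.63 ± 0.12). Of 10 genes of conjugate export and other targets, 1 was lower and 3 higher at day 14, and 3 lower and 2 higher at day 21. The counts of these last 2 roles lie close to the shares of all genes. Txnip, whose protein binds thioredoxin, averaged 8.20 ± 0.29 in excess and 5.23 ± 0.24 in sufficient medium at day 14, a difference of 2.97 ± 0.14 and 7.84-fold. Ugdh, which makes UDP-glucuronate for conjugation, was higher at day 14 (0.56 ± 0.11) and day 21.

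**Figure D5:**
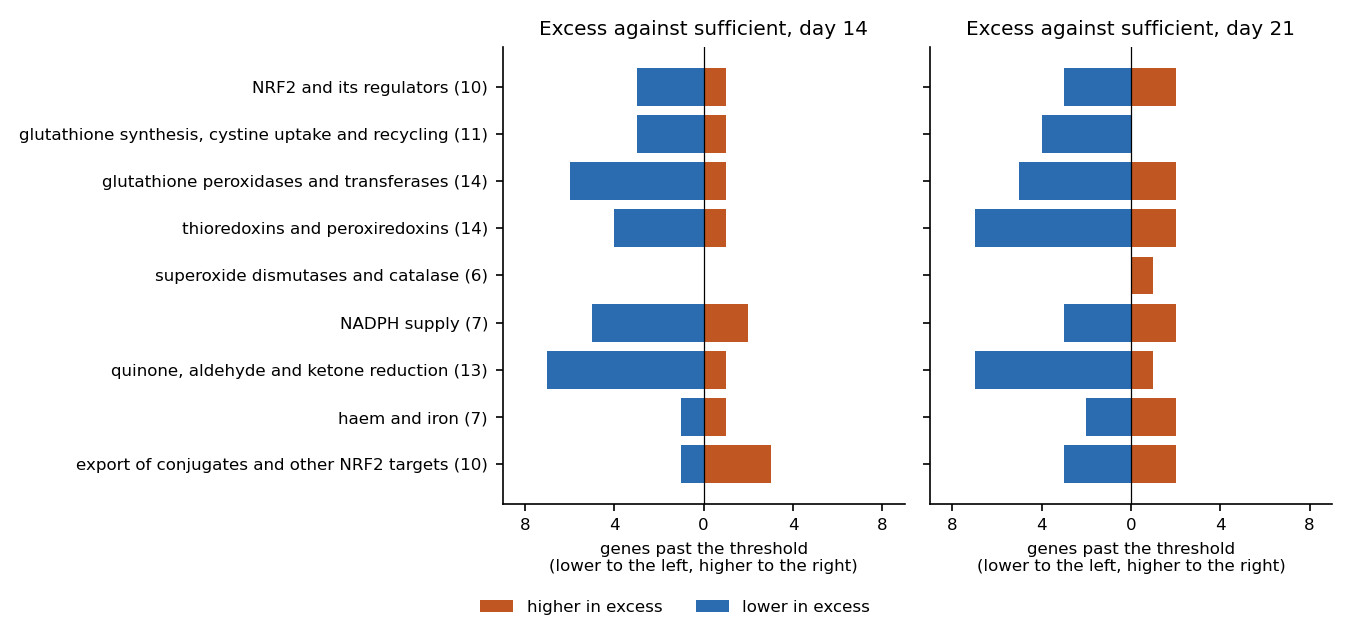
Number of genes of the wider list past an adjusted p of 0.05 in excess against sufficient medium at day 14 (left) and day 21 (right), by role, with the number tested in brackets. Bars to the left count genes lower in excess medium and bars to the right genes higher. Quinone, aldehyde and ketone reduction has 7 lower and 1 higher at both days.

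Between day 21 and day 7, 23 of the 92 genes were higher and 37 lower in deficient medium, 22 and 33 in sufficient medium, and 29 and 35 in excess medium. These are 25% and 40.2% in deficient, 23.9% and 35.9% in sufficient, and 31.5% and 38% in excess medium, near the 30.7% and 34.1%, the 29.6% and 33.1%, and the 34.6% and 25.4% of all genes, with the lower share in excess medium the farthest from it. Ephx1 rose by 2.04 ± 0.13 in sufficient medium. Ptgr1, prostaglandin reductase 1, differed by -1.56 ± 0.08. Slc7a11, the light chain of the cystine transporter, was called lower, but its day 21 arrays in that medium ranged from 3.28 to 3.96, all below the limit of 4, so the size of its difference is not given. Txnrd3, a thioredoxin-glutathione reductase known from the testis, rose in deficient medium by 1.16 ± 0.10. Its mean was also higher at day 21 than at day 7 in sufficient (6.03 against 4.95) and excess medium (5.57 against 4.67). Lancl1, a glutathione transferase, rose in sufficient medium by 1.14 ± 0.08.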

How the data were processed

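RNA of 43 samples was hybridised to Affymetrix Rat230_2 arrays after 3′ labelling, per the labels' protocols. The deposited values are log2 expression, which the authors made with GCRMA, and limma is also named, per the submitters' processing notes, without versions. GCRMA corrects background by probe sequence, normalizes by quantiles and summarizes probe sets, so a change of most genes in one direction would be levelled out. Values lay between 0.844 and 15, and array medians between 3.66 and 3.72. Precision is set by how many arrays a group has.

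Of 31099 probe sets, 20826 had 1 gene symbol, 436 several, 9780 no entry, and 57 were controls. The Entrez identifier matched RefSeq (GRCr8) for 20758, and 0 symbols changed. Probe sets with values over 4 on 4 or more arrays were kept, and the one with the highest mean stood for its gene, which left 9095 genes of 14217. Second probe sets were adjusted over 12283. One model of the 9 group means was fitted to all arrays in limma 3.58.1 (R 4.3.3) with 34 residual and 4.12 prior degrees of freedom, two-sided, with Benjamini-Hochberg adjustment over all genes and a threshold of 0.05. Errors of differences are SE and of levels SD. The script was tested on simulated data. Plots used matplotlib 3.10.9 under Python 3.11.15.

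Groups and replicate numbers come from the titles. The numbers gave no sign of pairing, though this cannot exclude it. Over 33 pairs of same-numbered arrays the median correlation of deviations from the group means was -0.07, with 7 pairs over 0.1. Over 173 pairs with other numbers it was 0.02, with 53 over 0.1. Replicate arrays correlated at 0.9912 to 0.998, and 0 pairs were identical. Serial 22 stands on 3 arrays and serial 50 on 2.

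Named were all 9 genes, most of the regulators, and for each member the 2 genes with the highest correlation of group means. Of the wider list, some of the 3 highest and 3 lowest differences past the threshold per comparison were named, not all. Further wider-list genes (Mafg, Slc3a2 at other days, Akr1b8 and Prdx6 in the excess comparisons, Sod1, and some values of named genes at other days) were added after their values were seen. The members, lists and tests were chosen with earlier results of these data known. Alternatives were another quantile normalization, no filter, the mean of probe sets, array weights, a variance trend, only the groups compared, a replicate block, serials, the beta-actin difference, and each array left out. Arrays by beta-actin difference and serials above 45 only were added after the data were seen.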

Additional observations from a re-analysis of the deposited data

Results flagged for a closer look

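In 81 sets of 1 gene and 1 group, 2 held an array far from the rest by Dixon's test, where chance gives about 4. Nqo1 in sufficient medium at day 21 read 11.58 on replicate 1, with the others between 11.48 and 11.51. Hmox1 in deficient medium at day 7 read 10.08 on replicate 5, with the others between 9.783 and 9.821.

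The effect of excess medium differed between days for 9 results. At day 14 against day 7 the difference of the effects was -0.5102 for Srxn1, -0.7023 for Nqo1, -0.2562 for Gpx1 and -0.3901 for Hmox1, each with an adjusted p of 0.033 or less in limma. At day 21 against day 7 it was -0.6749 for Srxn1, -0.843 for Nqo1, -0.7411 for Gsta4, -0.9387 for Gpx1 and -0.5022 for Hmox1, each with an adjusted p of 0.0041 or less.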

How the results depend on the processing

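The 9 genes gave 58 calls in 15 comparisons, and these were recomputed in 13 settings and with each of 43 arrays left out. Of 1354 values, 1301 kept the call, 52 lost it and 1 turned its sign, Txnrd1 in excess medium at day 7 (0.01862 with the mean of probe sets). All 5 calls of excess against sufficient medium at day 21 were kept in every setting run. Array weights moved the count from 0 to 1 in deficient medium at day 7, at day 14 and in the day 21 minus day 7 difference, and to 6 for deficient against excess medium at day 7. That last count was 1 with only the groups compared and 1 with the mean of probe sets, and 1 to 3 with an array left out. Excess medium at day 7 had 1 call. It had 0 after another quantile normalization, with only the groups compared, with the mean of probe sets, with a beta-actin difference of at most 2 only and with serials above 45 only, 2 with serials up to 45 only and with array weights, and 0 to 2 with an array left out. At day 14 it had 3 with serials above 45 only. The difference of the excess effect between day 14 and day 7 had 1 with serials up to 45 only, 2 each without serials 53 to 56, with the beta-actin covariate, with only the groups compared and with the beta-actin limit, 0 with serials above 45 only, and 2 to 4 with an array left out. Between day 21 and day 7 it had 1 with serials above 45 only. The causes were not tested. With a replicate block, although the numbers gave no sign of pairing, the counts were unchanged except 6 for the excess effect between day 21 and day 7. There Gclc joined at 0.557 (adjusted p 0.033). In all, 49 alternative values of results not called as reported passed the test, 17 of Gclc, 14 of Txnrd1, 6 of Gclm, 4 of Hmox1, 3 of Srxn1, 3 of Gsta4 and 2 of Mgst3. Gclc joined the excess effect between day 21 and day 7 also with array weights (0.473), the serial covariate (0.496), without serials 53 to 56 (0.625), with serials up to 45 only (0.869) and without any 1 of 6 arrays. Probe sets near the limit, such as the second of Srxn1, have blurred differences, and no scanner files were used here.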
